A study of Mus musculus with 6 samples.

Results

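The MYC and MAX network is a small family of transcription factors of the basic helix-loop-helix leucine zipper class. Its members were taken by gene symbol: the MYC proteins (*Myc*, *Mycn* and *Mycl*), their partner *Max*, the MAX-binding antagonists (*Mxd1*, *Mxd3*, *Mxd4*, *Mxi1* and *Mnt*) and the MAX-like factor *Mlx*. All 10 members were present among the 20654 genes of the count table. MYC proteins bind DNA as heterodimers with MAX and activate genes of ribosome production, nucleotide and polyamine synthesis and the cell cycle. MXD proteins, MXI1 and MNT compete for MAX, bind the same DNA element and recruit SIN3 and histone deacetylases to repress transcription. In muscle stem cells, *Myc* is known as an early gene of activation and growth, whereas MXD proteins are known from cells that leave the cell cycle and differentiate.

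The network was measured by RNA-seq in muscle satellite cells (MuSCs), the stem cells of skeletal muscle, from mice labelled *Piezo1* cKO and from wild-type mice, to ask how loss of the mechanosensitive channel PIEZO1 affects gene expression. The *Piezo1* cKO mice carried *Piezo1* fl/fl and *Pax7* CreERT2/+, in which tamoxifen activates a Cre recombinase driven by the *Pax7* locus of satellite cells, whereas the labels call the control mice wild type and the study's caption to these RNA-seq data names them as *Pax7* CreERT2/+. All mice had a C57BL/6 background and were injected with tamoxifen, and the age of these animals was not given in the sources used here. MuSCs were sorted as VCAM1+, CD31-, CD45- and Sca1- cells and cultured for 3 d on Matrigel in growth medium with 30% foetal bovine serum, chick embryo extract and 10 ng/ml basic fibroblast growth factor, with 1 µM 4-hydroxytamoxifen in both groups. Each group had 3 libraries, each made from 500 pg of total RNA by oligo-dT priming with unique molecular identifiers (UMIs), so that each count is 1 cDNA molecule before PCR and needs no correction for transcript length. Nothing in the labels says whether the libraries came from separate animals, so p-values measure the spread between these libraries, part of which may be technical.

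Wild-type libraries 1 to 3 held 740936, 931168 and 891531 counts. The *Piezo1* cKO-labelled libraries held 810096, 726378 and 769295 counts. Levels are given as CPM, counts scaled to a common library total and normalised by the TMM method of edgeR, and 3 counts corresponded to between 3.26 and 4.20 CPM. *Piezo1* itself did not separate the groups. Its counts were 11, 5 and 6 in wild type, whereas 7, 12 and 9 were counted in the *Piezo1* cKO-labelled libraries, so the ranges overlapped. The means were 9.25 ± 5.38 CPM (SD, n = 3) and 11.9 ± 3.41 CPM (SD, n = 3), and without a filter on low counts edgeR gave a log2 fold change of 0.41 (adjusted p = 0.736). Oligo-dT primers start at the 3′ end of the RNA, so a transcript that lacks the deleted exons can still be counted, and this measurement does not check the deletion. The exons of *Piezo1* also overlap those of *Ctu2* on the opposite strand, which had 208 counts over the 6 libraries, and without the strand setting of the counting their reads cannot be told apart.

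The DNA element bound by MYC-MAX and by the antagonist dimers is the E-box, and its best-known form is CACGTG, which reads the same on both strands. Promoter windows from 250 bases before to 50 bases after the annotated start were taken from RefSeq (GRCm38.p6) for 9 of the 10 members, all but *Myc*. The letters CACGTG were found in the windows of 4 members (*Mxd4*, *Mnt*, *Mlx* and *Max*), compared with 8.09% of the 27025 genes in the promoter table and 12.96% of the 6706 genes tested here that had a window. A match is a description of the sequence, not a bound site. The stretches of 60 bases that hold the element are shown 5′ to 3′ on the strand of each gene with the element in capitals, because they show where the network's own element lies in the promoters of its members.
Mxd4: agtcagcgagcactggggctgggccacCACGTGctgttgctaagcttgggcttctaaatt
Mnt: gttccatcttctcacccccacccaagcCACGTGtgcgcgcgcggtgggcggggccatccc
Mlx: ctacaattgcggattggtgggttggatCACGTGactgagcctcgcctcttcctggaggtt
Max: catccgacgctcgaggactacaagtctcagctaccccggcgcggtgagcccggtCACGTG
The *Mxd4* stretch is chr5:34187897-34187956 on the minus strand, and its element begins 219 bases before the start. The *Mnt* stretch is chr11:74830774-74830833 on the plus strand, and its element begins 123 bases before the start. The *Mlx* stretch is chr11:101087223-101087282 on the plus strand, with the element 40 bases before the start. The *Max* stretch is chr12:76962246-76962305 on the minus strand, and its element spans the RefSeq start, beginning 3 bases before it. All these distances are from RefSeq starts, whereas the gene coordinates below are from GENCODE and can differ. The GENCODE start of *Max* is 76962201, and the whole stretch lies before that start. The windows of *Mycl*, *Mycn*, *Mxd1*, *Mxd3* and *Mxi1* did not hold these letters.

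*Mycl* was 2.29-fold higher in the *Piezo1* cKO-labelled libraries and was the single member called by edgeR's quasi-likelihood test at an adjusted p under 0.05. *Myc* lay lower in all 3 libraries labelled *Piezo1* cKO than in any wild-type library, at 0.726 of the wild-type level, without reaching that threshold. *Max* and the antagonist *Mxd4* had fitted values above wild type and were not called. Of the 10 members, 6 passed the filter on low counts (*Myc*, *Mycl*, *Max*, *Mxd4*, *Mxi1* and *Mlx*). Of these, 1 was called higher and 0 lower. Over all 8551 genes tested, 0.784% were called, 0.468% higher and 0.316% lower. In 3 members the groups did not overlap, 2 with every library labelled *Piezo1* cKO above every wild-type library and 1 below. The same separation was seen upwards in 8.2% and downwards in 8.31% of all genes tested. The fitted value was above 0 for 5 of the 6 tested members and below 0 for 1, with a median log2 fold change of 0.36 beside 0.0023 over all genes tested.

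**Figure D1:**
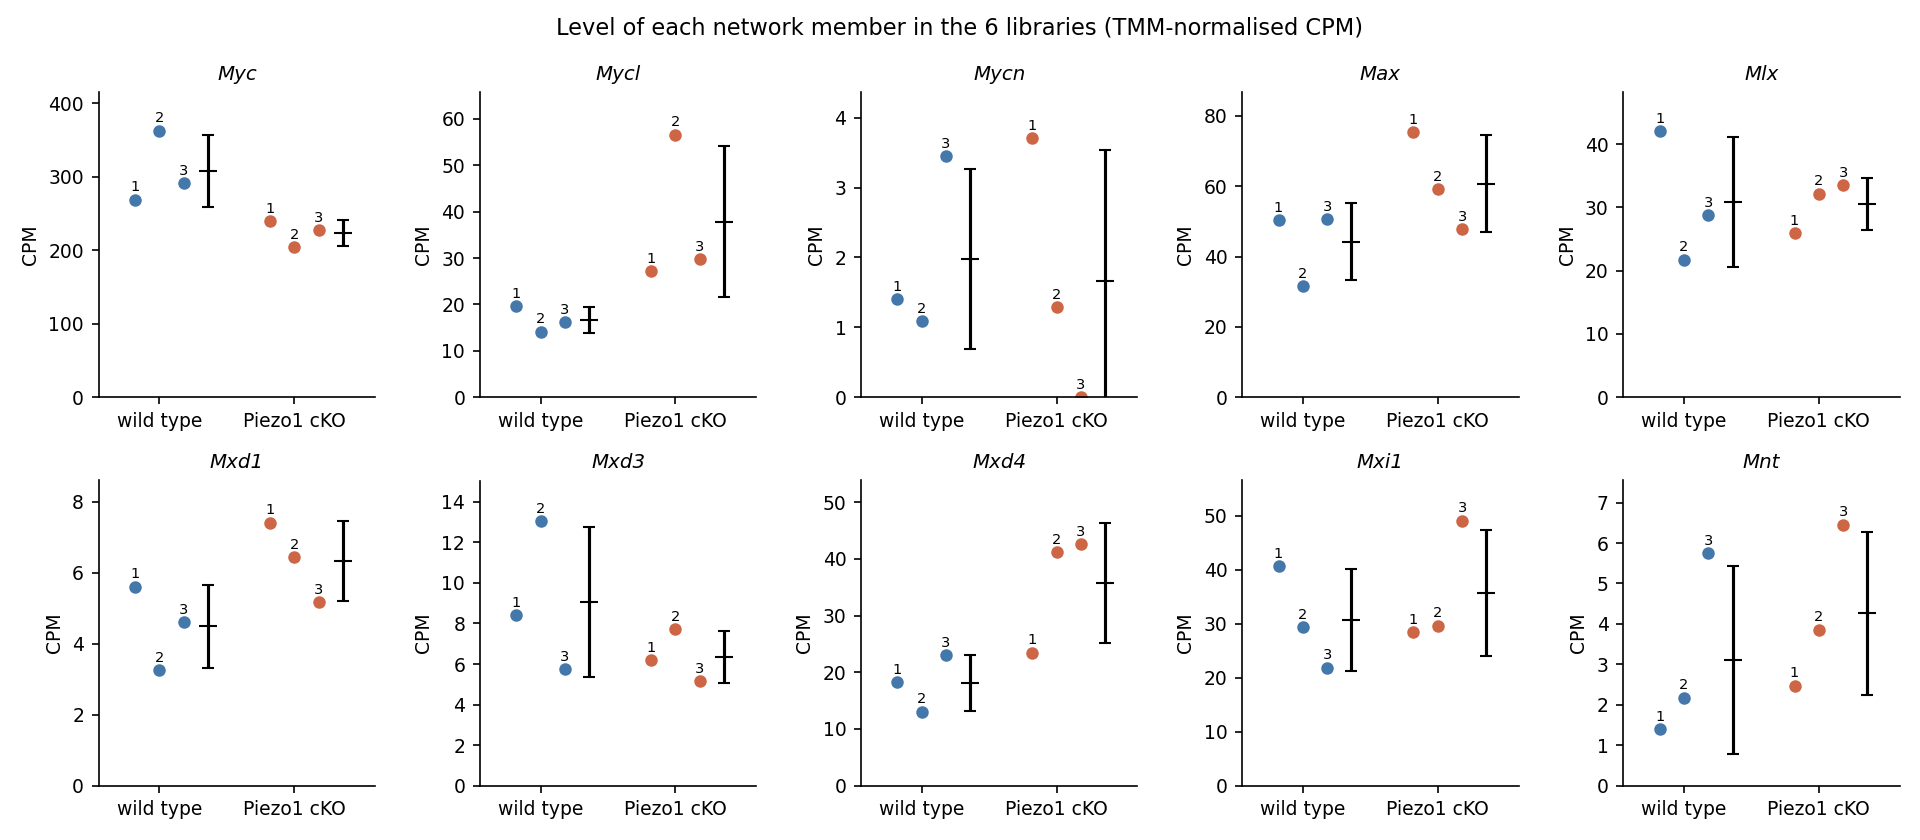
Level of each of the 10 members in TMM-normalised CPM (y axis, a separate linear scale from 0 in each panel) in the 3 wild-type libraries (blue) and the 3 Piezo1 cKO-labelled libraries (orange), with replicate numbers above the points and the mean ± SD beside them. The groups do not overlap in the panels of Myc, Mycl and Mxd4, and the lower bar of Mycn in the Piezo1 cKO group is cut off at 0.

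*Myc* encodes the central activator of the network and is found on the plus strand of chromosome 15 (GRCm38) between 61985391 and 61990374. Its level was 268.9, 363.0 and 291.0 CPM in wild-type libraries 1 to 3, from 192, 334 and 253 counts. In the *Piezo1* cKO-labelled libraries it was 239.6, 204.6 and 227.2 CPM, from 194, 159 and 176 counts. Each library labelled *Piezo1* cKO lay below every wild-type library, and the nearest values were 29.3 CPM apart. The means were 308 ± 49.2 CPM and 224 ± 17.7 CPM (SD, n = 3 each). The wild-type libraries varied more than their counts alone would give, with a coefficient of variation of 16.0% beside 6.21% from counting error, and wild-type library 2 was the highest. The log2 fold change was -0.46 (SE 0.14, 95% interval -0.74 to -0.19), with an unadjusted p of 0.00117 and an adjusted p of 0.0921 by edgeR. Over 15 alternatives the log2 fold change lay between -0.54 and -0.32, and its adjusted p lay between 0.0524 and 0.496.

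*Mycl* encodes L-MYC, a MYC protein with a weaker activation domain, and lies on chromosome 4 from 122995652 to 123002485 on the plus strand. Its level was 19.6, 14.1 and 16.1 CPM in wild type, from 14, 13 and 14 counts. In the *Piezo1* cKO-labelled libraries it was 27.2, 56.6 and 29.7 CPM, from 22, 44 and 23 counts. There was no overlap, and library 2 labelled *Piezo1* cKO stood well above the other two of its group. The coefficient of variation in that group was 43.2%, compared with 18.4% from counting error. The means were 16.6 ± 2.77 CPM and 37.8 ± 16.3 CPM (SD, n = 3 each). The log2 fold change was 1.19 (SE 0.31, 95% interval 0.58 to 1.80) with an adjusted p of 0.0293 by edgeR. The call was lost without library 2 labelled *Piezo1* cKO (0.78, adjusted p = 0.588), without wild-type library 2 (1.09, adjusted p = 0.1002) and without wild-type library 3 (1.17, adjusted p = 0.0620), and also under limma-voom and cyclic loess normalisation. DESeq2 gave 1.18 with an unadjusted p of 0.00815 and no adjusted p, because its filter on low means removed the gene.

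*Mycn*, which encodes N-MYC and is best known from embryonic and neural tissue, was near the floor. It had 1, 1 and 3 counts in wild type and 3, 1 and 0 counts in the *Piezo1* cKO-labelled libraries. It did not pass the filter, and a difference was not detectable at this depth. Without the filter its 95% interval ran from -2.37 to 1.92 on the log2 scale. The 3 MYC genes together had 289.9, 378.2 and 310.6 CPM in wild type and 270.5, 262.5 and 256.9 CPM in the *Piezo1* cKO-labelled libraries. These sums did not overlap, and *Myc* was the most abundant of the 3 in every library.

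*Max* encodes the obligate partner of the MYC proteins and of their antagonists, and lies on chromosome 12 from 76937269 to 76962201 on the minus strand. Its level was 50.4, 31.5 and 50.6 CPM in wild type and 75.3, 59.2 and 47.8 CPM in the *Piezo1* cKO-labelled libraries. The groups overlapped, since library 3 labelled *Piezo1* cKO lay below wild-type libraries 1 and 3. The means were 44.2 ± 11.0 CPM and 60.8 ± 13.9 CPM (SD, n = 3 each), with counts between 29 and 61. The log2 fold change was 0.48 (SE 0.23, 95% interval 0.03 to 0.93), with an unadjusted p of 0.0388 and an adjusted p of 0.390 by edgeR. It became 0.27 without wild-type library 2 and 0.30 without library 1 labelled *Piezo1* cKO.

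Among the 5 antagonists, *Mxd4*, which encodes a MAX dimerisation protein of the SIN3-recruiting group, differed most. It lies on chromosome 5 from 34173883 to 34187720 on the minus strand. Its level was 18.2, 13.0 and 23.0 CPM in wild type and 23.5, 41.2 and 42.6 CPM in the *Piezo1* cKO-labelled libraries. The groups did not overlap, but library 1 labelled *Piezo1* cKO was only 0.457 CPM above wild-type library 3. The means were 18.1 ± 4.98 CPM and 35.7 ± 10.7 CPM (SD, n = 3 each), a fold of 1.97. The log2 fold change was 0.98 (SE 0.30, 95% interval 0.38 to 1.58), with an unadjusted p of 0.00162 and an adjusted p of 0.107 by edgeR. *Mxd4* was called with at least 10 counts required in every library (0.99, adjusted p = 0.0487) and without library 1 labelled *Piezo1* cKO (1.22, adjusted p = 0.0181).

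*Mxi1*, the MAX-interacting repressor also known as MXD2, had 29, 27 and 19 counts in wild type and 23, 23 and 38 counts in the *Piezo1* cKO-labelled libraries. Its level was 30.6 ± 9.44 CPM and 35.7 ± 11.6 CPM (SD, n = 3 each), and the groups overlapped. The log2 fold change was 0.24 (95% interval -0.30 to 0.78) with an adjusted p of 0.807 by edgeR. The fitted value turned to -0.062 without library 3 labelled *Piezo1* cKO, which was the highest of the 6. The other 3 antagonists were below the filter. *Mxd1*, a gene known from terminal differentiation, had 4, 3 and 4 counts in wild type and 6, 5 and 4 counts in the *Piezo1* cKO-labelled libraries. *Mxd3*, an antagonist known from proliferating cells, had 6, 12 and 5 counts in wild type and 5, 6 and 4 counts in the *Piezo1* cKO-labelled libraries. *Mnt*, the broadly expressed antagonist, had 1, 2 and 5 counts in wild type and 2, 3 and 5 counts in the *Piezo1* cKO-labelled libraries. The groups overlapped in all 3, and at these counts a difference was not detectable. The exons of *Mxd3*, *Mxd4* and *Mxi1* overlap those of a gene on the opposite strand (*Prelid1*, *Gm42846* and *Gm10197*). The strand setting of the counting was not given in the sources used here, so reads of these partners cannot be told apart from theirs.

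*Mlx* encodes the partner of the glucose-sensing factors MLXIP and MLXIPL and also binds MXD1, MXD4 and MNT. It had 30, 20 and 25 counts in wild type and 21, 25 and 26 counts in the *Piezo1* cKO-labelled libraries. Its level was 30.8 ± 10.3 CPM and 30.6 ± 4.06 CPM (SD, n = 3 each), and the groups overlapped. The log2 fold change was 0.013, with a 95% interval from -0.54 to 0.56, and its sign changed under DESeq2 (-0.013), under cyclic loess (-0.029), without wild-type library 2 (-0.19) or 3 (-0.026) and without library 2 (-0.027) or 3 (-0.065) labelled *Piezo1* cKO. Its exons overlap those of *Psmc3ip* on the opposite strand, which had 142 counts over the 6 libraries. None of the 4 genes of the MLX arm (*Mlxip*, *Mlxipl*, *Txnip* and *Arrdc4*) passed the filter.

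**Figure D2:**
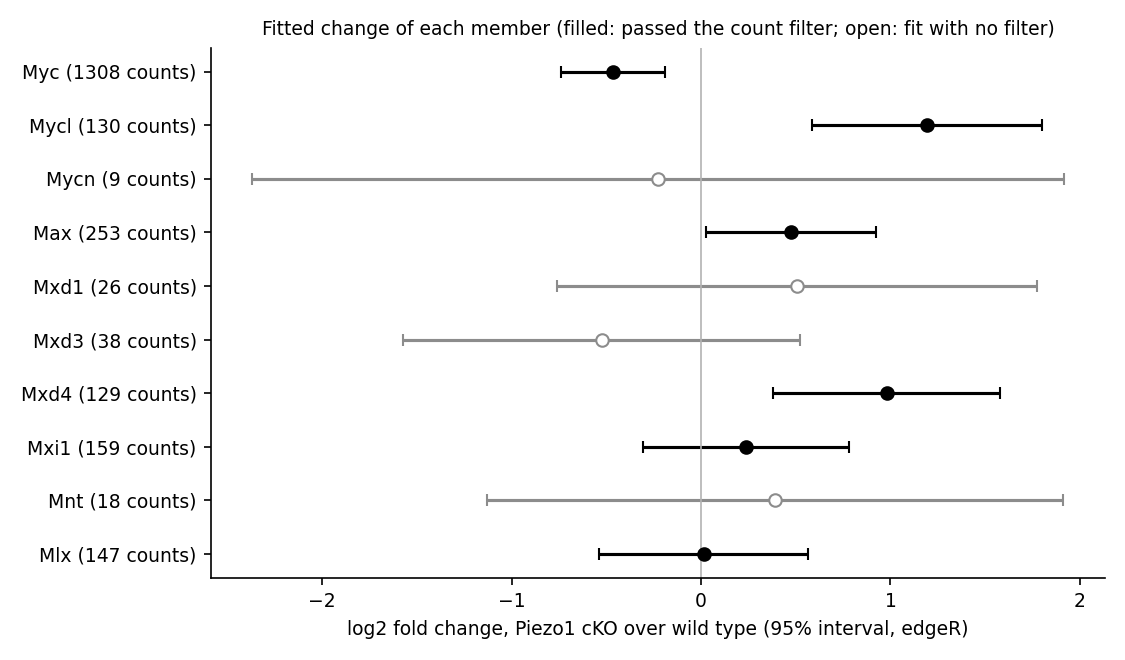
Log2 fold change of each member between the libraries labelled Piezo1 cKO and wild type (x axis, edgeR, with 95% intervals), with the total count over the 6 libraries beside the name. Filled points passed the count filter, and open points come from the fit with no filter. The intervals of Myc, Mycl, Max and Mxd4 do not include 0, and those of the 4 genes below the filter all cover the range from -0.76 to 0.52.

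Because UMI counts of different genes stand on the same scale within a library, the balance of the network was also read within each library, free of any normalisation between libraries. *Myc* made up 58.9%, 73.7% and 64.5% of the members' counts in wild type and 54.5%, 46.2% and 50.9% in the *Piezo1* cKO-labelled libraries. This share did not overlap between the groups. The nearest pair was wild-type library 1, with a 95% Wilson interval from 53.5% to 64.1%, and library 1 labelled *Piezo1* cKO, with an interval from 49.3% to 59.6%, and these intervals overlapped. They cover counting error only.

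For every 100 counts of *Myc* there were 7.29, 3.89 and 5.53 counts of *Mycl* in wild type and 11.3, 27.7 and 13.1 in the *Piezo1* cKO-labelled libraries. *Max* stood at 18.8, 8.68 and 17.4 counts per 100 of *Myc* in wild type and at 31.4, 28.9 and 21.0 in the *Piezo1* cKO-labelled libraries. *Mxd4* stood at 6.77, 3.59 and 7.91 in wild type and at 9.79, 20.1 and 18.8 in the *Piezo1* cKO-labelled libraries. None of these 3 ratios overlapped between the groups, and wild-type library 2, the highest in *Myc*, was the lowest in each. *Myc* itself did not overlap between the groups, whereas the CPM of *Max* did, so a separated ratio does not show a difference in its numerator. The share of all genes whose ratio to *Myc* separates the groups was not computed here.

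The 5 antagonists together stood at 27.6, 16.8 and 20.9 counts per 100 of *Myc* in wild type and at 28.4, 43.4 and 47.7 in the *Piezo1* cKO-labelled libraries. Here the groups were separated by less than 1 count per 100 between the libraries numbered 1. The summed antagonist level alone was 74.2, 60.9 and 61.0 CPM in wild type and 67.9, 88.8 and 108.4 CPM in the *Piezo1* cKO-labelled libraries, and these ranges overlapped. The ratios of *Mxi1* and of *Mlx* to *Myc* overlapped as well. The ratios were not tested, since an exact permutation test of 3 libraries against 3 gives no two-sided p under 0.1, and they share the *Myc* counts, so they are not separate measurements of the same difference.

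**Figure D3:**
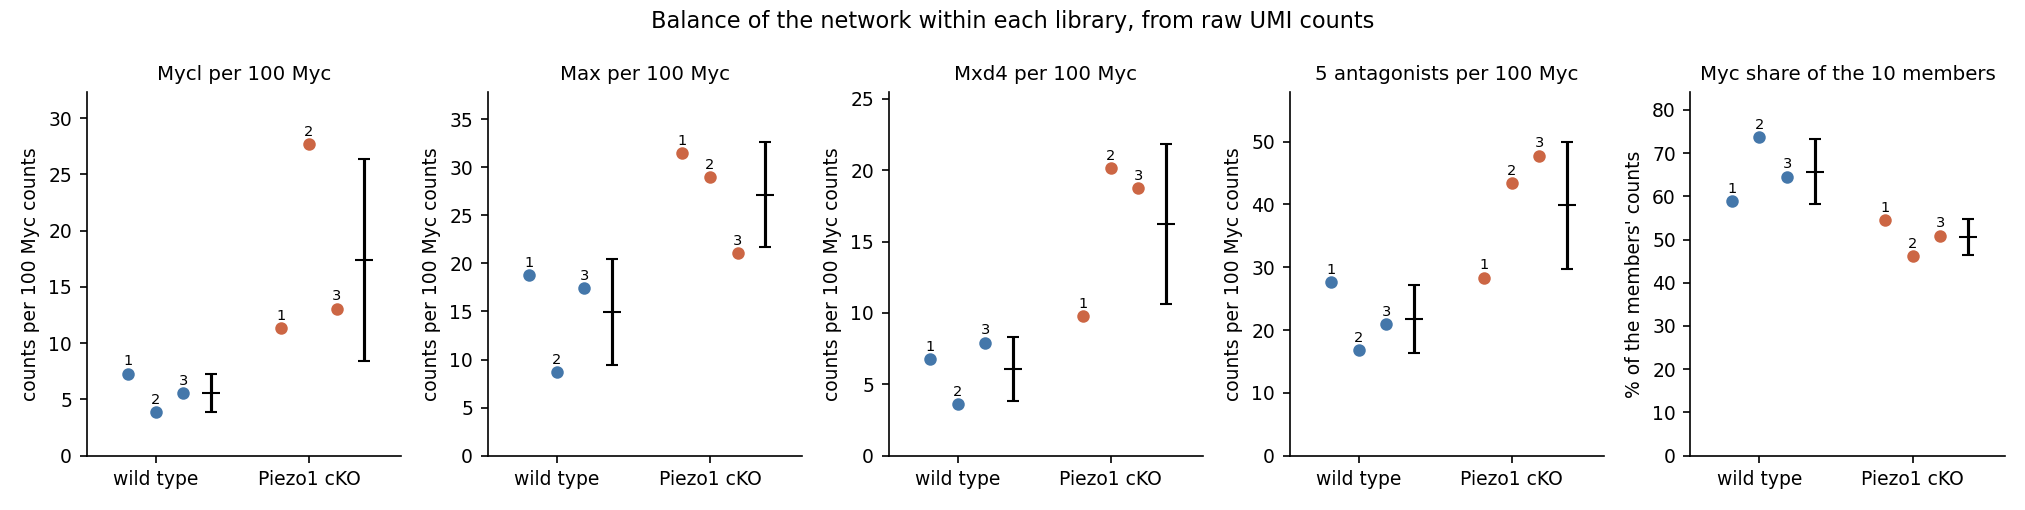
Balance of the network within each library from raw UMI counts: counts of Mycl, Max, Mxd4 and of the 5 antagonists together per 100 counts of Myc, and the share of Myc among the counts of the 10 members (y axes from 0; mean ± SD beside the points). In the 4 ratio panels the libraries labelled Piezo1 cKO lie above wild type, and in the share panel they lie below it, at 46.2% to 54.5% beside 58.9% to 73.7%.

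The proteins that work with the network were read from lists of 36 genes (the MLX arm, other MAX partners, corepressors, coactivators, MIZ-1 and factors of MYC turnover), of which 28 were tested. None of the 28 was called in either direction by edgeR, 1 had an unadjusted p under 0.05, and limma-voom called 0, as did DESeq2, which gave 11 of them, that gene included, no adjusted p. The fitted value was below 0 for 21 and above 0 for 7, with a median log2 fold change of -0.14 that became -0.052 without wild-type library 2 and -0.088 without library 2 labelled *Piezo1* cKO. The gene with that unadjusted p was *Zbtb17*, which encodes MIZ-1, the zinc finger factor through which MYC represses genes such as *Cdkn2b*. Its level was 50.4, 47.8 and 62.1 CPM in wild type and 40.8, 29.6 and 23.2 CPM in the *Piezo1* cKO-labelled libraries. The groups did not overlap, and the log2 fold change was -0.77 (SE 0.25, 95% interval -1.26 to -0.28) with an adjusted p of 0.131 by edgeR. It was called without library 1 labelled *Piezo1* cKO (-1.01, adjusted p = 0.0356).

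The other MAX partners belong to repressor complexes built on MGA, a very large protein with a MAX-binding domain. All 4 (*Mga*, *Pcgf6*, *L3mbtl2* and *E2f6*) had fitted values below 0, with a median of -0.25, and the groups overlapped in each. *Mga* stood at 43.9 ± 8.33 CPM in wild type and at 32.6 ± 5.16 CPM in the *Piezo1* cKO-labelled libraries (SD, n = 3 each). Among the corepressors, all 5 were tested, with a median of -0.043 that ranged from -0.14 without wild-type library 3 to 0.038 without wild-type library 2, and was also above 0 with total counts only, with cyclic loess and without library 2 labelled *Piezo1* cKO. *Hdac1*, a histone deacetylase of the SIN3 complex, was at 242 ± 4.25 CPM and 220 ± 15.1 CPM (SD, n = 3 each), and *Sin3b* at 203 ± 14.6 CPM and 218 ± 21.1 CPM. The 10 tested coactivators had a median of -0.065, which was -0.20 without library 1 labelled *Piezo1* cKO and 0.0021 without library 2. Their fitted values ran from -0.30 for *Actl6a*, a subunit of chromatin remodelling complexes, to 0.47 for *Trrap*, the scaffold of histone acetyltransferase complexes. The 8 tested factors of MYC turnover had a median of -0.14 (-0.021 without wild-type library 2), and *Bin1*, which encodes a MYC-interacting adaptor, was the most abundant of all the 36 genes at 434 ± 49.5 CPM in wild type and 495 ± 72.9 CPM in the *Piezo1* cKO-labelled libraries.

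Genes that MYC-MAX is known to activate mostly had lower fitted values. Of 86 listed target genes 84 were tested, and the fitted value was below 0 for 79 and above 0 for 5, compared with 49.8% of all genes below 0. The median log2 fold change was -0.30. By edgeR 4 were called lower (*Odc1*, *Ncl*, *Nop56* and *Pa2g4*) and 0 higher, compared with 0.316% of all genes tested called lower. An unadjusted p under 0.05 in the lower direction was found for 38, compared with 494 of all 8551 genes. In 28 of the 84 (33.3%) every library labelled *Piezo1* cKO lay below every wild-type library, compared with 8.31% of all genes tested, and in 0 above. Without library 2 labelled *Piezo1* cKO, the fitted value was below 0 for 77 of the 84 with a median of -0.25, and none was called. Without wild-type library 2, it was below 0 for 72 with a median of -0.19, and 1 was called. The listed genes are expressed together in growing cells, so they are not independent observations, and the list was not tested against other genes. It was also written by hand with earlier results of these data known, so these shares only describe the list.

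The 33 nucleolar targets, which make and process ribosomal RNA, had fitted values below 0 in 32 and above 0 in 1 (*Utp20*), with a median of -0.31 that became -0.18 without wild-type library 2. *Ncl*, which encodes nucleolin, was at 1725, 1833 and 1509 CPM in wild type and at 1308, 879 and 1157 CPM in the *Piezo1* cKO-labelled libraries. With no overlap between the groups, *Ncl* fell by 0.60 on the log2 scale (SE 0.15, adjusted p = 0.0280 by edgeR). *Nop56*, a core protein of box C/D small nucleolar ribonucleoproteins, was at 545, 598 and 430 CPM in wild type and at 395, 310 and 342 CPM in the *Piezo1* cKO-labelled libraries. It fell by 0.59 (SE 0.14, adjusted p = 0.0134 by edgeR), again with no overlap. *Npm1*, which encodes nucleophosmin, had a log2 fold change of -0.47 and was not called by edgeR (adjusted p = 0.104) but was by DESeq2 (adjusted p = 0.00641), with groups at 1110 ± 24.3 CPM and 803 ± 69.9 CPM that did not overlap. The calls of both *Ncl* and *Nop56* were lost without wild-type library 1 (adjusted p = 0.111 and 0.0574) or 2 (0.112 and 0.0829), without library 2 (0.148 and 0.203) or 3 (0.115 and 0.112) labelled *Piezo1* cKO, and under cyclic loess (0.0962 and 0.104). Levels of *Npm1* and *Ncl* are uncertain where near-identical copies in the genome share their reads.

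Of the 31 metabolic targets 30 were tested, with fitted values below 0 in 28, above 0 in 2 (*Hk2* and *Prps2*) and a median of -0.25 that became -0.38 without library 1 labelled *Piezo1* cKO. *Odc1*, which encodes ornithine decarboxylase, the rate-limiting enzyme of polyamine synthesis and a textbook target of MYC through E-boxes in its first intron, was at 500, 699 and 419 CPM in wild type and at 305, 269 and 314 CPM in the *Piezo1* cKO-labelled libraries. The groups did not overlap, and wild-type library 2 was the highest, as for *Myc*. *Odc1* fell by 0.87 on the log2 scale (SE 0.15, 95% interval -1.16 to -0.58, adjusted p = 0.000391 by edgeR), a call that was lost without library 2 labelled *Piezo1* cKO (-0.81, adjusted p = 0.148). *Tfrc*, the transferrin receptor, was at 221 ± 31.0 CPM in wild type and 159 ± 24.2 CPM in the *Piezo1* cKO-labelled libraries (adjusted p = 0.0944 by edgeR), and *Slc3a2*, the heavy chain of amino acid transporters, at 357 ± 26.3 CPM and 265 ± 25.6 CPM (adjusted p = 0.116). The groups overlapped in neither, and neither was called, although *Tfrc* was called without wild-type library 1 (adjusted p = 0.0401) and without library 1 labelled *Piezo1* cKO (0.0194).

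Of the 22 targets of the cell cycle and translation 21 were tested, with fitted values below 0 in 19, above 0 in 2 (*Ccnd2* and *E2f2*) and a median of -0.29. *Pa2g4*, a growth-regulating protein that binds ribosomal subunits, was at 293, 283 and 162.2 CPM in wild type and at 158, 148 and 162.6 CPM in the *Piezo1* cKO-labelled libraries. It fell by 0.65 (SE 0.16, adjusted p = 0.0472 by edgeR), but the groups overlapped, with wild-type library 3 inside the range of the libraries labelled *Piezo1* cKO. Its call was lost under DESeq2 (adjusted p = 0.131), limma-voom (0.124), total counts only (0.106), cyclic loess (0.175) and thinning to the smallest total (0.106) and without any library but wild-type library 3, at adjusted p from 0.0585 to 0.477. *Mcm5*, a subunit of the replicative helicase, was at 245 ± 24.2 CPM and 181 ± 35.0 CPM, and *Eif2s1*, a translation initiation factor, at 544 ± 22.1 CPM and 409 ± 33.6 CPM (SD, n = 3 each). Neither of these was called (adjusted p = 0.137 for both by edgeR), although *Mcm5* was called without library 1 labelled *Piezo1* cKO (0.0181). In the other direction, *Ccnd2* had a log2 fold change of 0.50 and was not called (adjusted p = 0.739 by edgeR). It was called higher without wild-type library 3 (1.14, adjusted p = 0.00155), whereas its log2 fold change became 0.18 without wild-type library 2.

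Genes known to be repressed by MYC went both ways. Of the 13 listed 8 were tested, 5 with fitted values above 0 and 3 below, with a median of 0.16, and 0 were called in either direction by edgeR, limma-voom or DESeq2, which gave 3 of them, *Cdkn2b* and *Gadd45a* included, no adjusted p. With no count filter the median over all listed genes with counts was 0.029 by edgeR and 0.023 by DESeq2. Over the tested genes it became 0.049 without wild-type library 2 and 0.071 without library 1 labelled *Piezo1* cKO, and the split became 4 and 4 without wild-type library 1 or 2 or library 3 labelled *Piezo1* cKO. The unadjusted p was under 0.05 for 2 in the higher and 1 in the lower direction. *Cdkn2b*, which encodes the cyclin-dependent kinase inhibitor p15 and is repressed by MYC through MIZ-1, was at 57.4, 31.5 and 42.6 CPM in wild type and at 61.7, 90.1 and 69.7 CPM in the *Piezo1* cKO-labelled libraries. The groups did not overlap, and the log2 fold change was 0.77 (SE 0.22) with an adjusted p of 0.0640 by edgeR. *Cdkn2b* was called with at least 10 counts required in every library (adjusted p = 0.0360), without wild-type library 1 (0.0172) and without library 1 labelled *Piezo1* cKO (0.0158). *Gadd45a*, a growth arrest gene, was at 40.3 ± 12.3 CPM and 64.4 ± 6.74 CPM (SD, n = 3 each), with an adjusted p of 0.141. *Fth1*, the ferritin heavy chain, lay on the other side at 3969 ± 278 CPM and 2827 ± 628 CPM (adjusted p = 0.177). *Cdkn1a*, which encodes p21, was at 748 ± 94.8 CPM and 681 ± 91.9 CPM, and its groups overlapped.

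**Figure D4:**
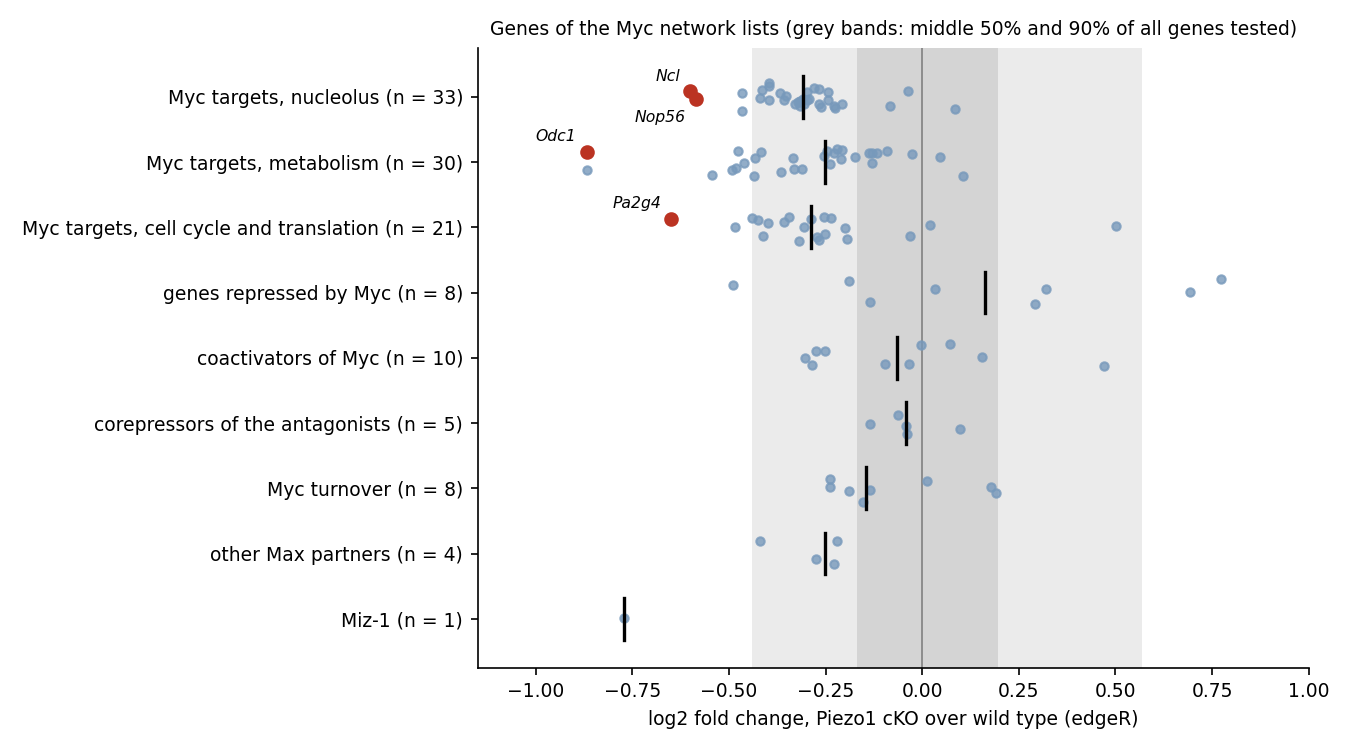
Log2 fold change between the libraries labelled Piezo1 cKO and wild type (x axis, edgeR) of every tested gene in the lists of MYC targets, repressed genes and network proteins (rows, with the number tested). Red points passed an adjusted p of 0.05, black bars are list medians, and the grey bands hold the middle 50% and 90% of all genes tested. The 3 target lists have medians of -0.31, -0.25 and -0.29, and the other lists, apart from the single gene Zbtb17, have medians between -0.25 and 0.16.

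The E-box search was extended to the listed targets. Of the 86, 73 had a promoter window, and 19 of these (26.0%) held CACGTG, compared with 12.96% of the genes tested that had a window. *Nop56*, *Ncl*, *Odc1* and *Pa2g4* were not among the 19, whereas *Utp20* was. The targets were listed by hand from knowledge of MYC biology, in which this element plays a part. Earlier results of these data were also known, so this share is a description of the list.

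Across the 6 libraries, the genes whose log2 CPM followed *Myc* most closely were *Cd34* (Pearson r = 0.996), *Vrk1* (0.996), *Trmt61a* (0.991), *Prpf31* (0.990) and *Cars* (0.986). A total of 199 genes had r above 0.9 with *Myc*, compared with 97 for *Max* and 32 for *Mxi1*. The closest genes to *Max* were *Ik* (0.997), *Olfml2b* (0.988), *Mettl27*, *Ppm1l* and *Ptprn*. The closest to *Mxi1* were *Tmem80* (0.981), *Trmt10a*, *S100a4*, *Leprotl1* and *Pias3*. The 6 points of each correlation share the libraries and fall into the 2 groups, so any gene that separates the groups as *Myc* does scores highly, and each gene was picked as the highest of 8551.

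Markers of cell state and of other cell types were read in the same libraries. In bulk RNA, fewer cells of a type and less RNA per cell cannot be told apart. Of 12 muscle differentiation markers 11 were measured and *Ckm* was not analysed here. The list had a sum of 490, 323 and 438 CPM in wild type and 690, 1852 and 978 CPM in the *Piezo1* cKO-labelled libraries, with *Tnnt2*, a troponin of the contractile apparatus, the most abundant in wild type (227 CPM on average) and *Acta1*, the skeletal muscle actin, in the *Piezo1* cKO-labelled libraries (294 CPM on average). The 8 tested markers all had fitted values above 0, 7 with no overlap between the groups, and none was called by edgeR, which gave 4 an unadjusted p under 0.05, whereas edgeR without the count filter called 2 (*Mymk* and *Tnnc1*), DESeq2 1 (*Acta1*) and limma-voom and cyclic loess called 7 each. With 1 library left out, edgeR called 2 of them without library 1 or library 2 labelled *Piezo1* cKO and 1 without wild-type library 2. *Myog*, which encodes the differentiation factor myogenin, had 40, 3 and 45 counts in wild type and 63, 203 and 92 in the *Piezo1* cKO-labelled libraries. Library 2 labelled *Piezo1* cKO had the highest sum of these markers, the highest *Mycl* and the lowest *Myc*, and wild-type library 2 had the lowest sum, the lowest *Mycl* and the highest *Myc*. The part of differentiation in the values of *Myc*, *Mycl*, *Mxd4* and the MYC targets was not tested.

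The 10 cell cycle markers summed to 3199, 3360 and 3169 CPM in wild type and to 3080, 2325 and 2734 CPM in the *Piezo1* cKO-labelled libraries. All 10 had fitted values below 0, with a median of -0.27 (-0.16 without wild-type library 2, with 1 of the 10 then above 0), and none was called by edgeR, by limma-voom or by DESeq2 where it gave an adjusted p, with 4 at an unadjusted p under 0.05 by edgeR. *Cdk1*, the mitotic kinase, was at 296 ± 22.6 CPM and 223 ± 9.34 CPM, and *Mki67*, which encodes the proliferation marker Ki-67, at 69.4 ± 16.3 CPM and 54.2 ± 8.55 CPM (SD, n = 3 each). The 86 MYC targets summed to 27372, 29254 and 26267 CPM in wild type and to 24392, 18997 and 22337 CPM in the *Piezo1* cKO-labelled libraries, with the same libraries at the top and at the bottom as the cell cycle markers. The part of proliferation in the target values was not tested.

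The labelled cell type was checked by 10 myoblast markers, which were present in both groups. They summed to 2850, 2602 and 2755 CPM in wild type and to 2863, 2267 and 2589 CPM in the *Piezo1* cKO-labelled libraries, and *Myod1*, the myogenic determination factor, was the most abundant at 1421 ± 99.5 CPM and 1276 ± 199 CPM (SD, n = 3 each). *Pax7*, the satellite cell factor, was at 21.4 ± 7.14 CPM and 13.9 ± 6.80 CPM. Of the 8 tested, 4 lay on each side of 0. None was called by edgeR, by limma-voom or by DESeq2 where it gave an adjusted p. An unadjusted p under 0.05 by edgeR was found for 1 higher, *Cdh15* (0.53, adjusted p = 0.118), and for 2 lower. These were *Sdc4* (-0.53, adjusted p = 0.0617) and *Vcam1* (-0.45, adjusted p = 0.185). The groups did not overlap in *Cdh15*, *Sdc4* or *Vcam1*. However, edgeR called 1 marker without the count filter and 1 with at least 10 counts required in every library. With 1 library left out, *Sdc4* was called in 3 fits and *Cdh15* in 1.

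Among markers of other cell types, the summed fibro-adipogenic and mural lists did not overlap between the groups, the first lower and the second higher in the *Piezo1* cKO-labelled libraries. Of its 8 genes *Dpt* was not analysed here, and the sum was 153, 227 and 174 CPM in wild type and 91.4, 70.8 and 90.4 CPM in the *Piezo1* cKO-labelled libraries. *Cd34*, its most abundant gene and also a known gene of quiescent satellite cells, had 53, 172 and 91 counts in wild type and 39, 23 and 35 counts in the *Piezo1* cKO-labelled libraries. The groups did not overlap, and its log2 fold change was -1.59 (SE 0.40) with an adjusted p of 0.182 by edgeR, whereas it was called by edgeR without the count filter (1.02e-11), without wild-type library 1 (8.57e-06) and without wild-type library 2 (-1.13, adjusted p = 0.000236), by DESeq2 (0.000824), by limma-voom (0.00502) and with cyclic loess (0.00293). *Smoc2*, the third gene of the list that was tested, had 28, 8 and 11 counts in wild type and 20, 18 and 19 counts in the *Piezo1* cKO-labelled libraries, with overlap between the groups. *Dcn*, which encodes the matrix proteoglycan decorin, fell by 2.17 on the log2 scale (SE 0.38, adjusted p = 0.000391 by edgeR). Its counts were low, at 18, 23 and 37 in wild type and 8, 5 and 3 in the *Piezo1* cKO-labelled libraries. DESeq2 gave it no adjusted p, and requiring at least 10 counts in every library removed it, whereas all 6 fits with 1 library left out called it. Fibro-adipogenic cells carry Sca1 and the sort was for Sca1- cells, but the purity of the sort was not measured here. The part of such cells in the values of *Myc* was not tested. The mural list summed to 44.8, 31.5 and 33.4 CPM in wild type and to 61.7, 54.0 and 85.2 CPM in the *Piezo1* cKO-labelled libraries, and *Kcnj8* and *Higd1b* were not analysed here. Its most abundant gene and the only one tested, *Cspg4*, a proteoglycan of pericytes, was at 31.7 ± 6.54 CPM in wild type and 53.0 ± 14.9 CPM in the *Piezo1* cKO-labelled libraries (SD, n = 3 each), without overlap, and was not called (0.76, SE 0.25, adjusted p = 0.143 by edgeR). The part of mural cells in the values of *Myc* was not tested. Immune markers summed to between 56.0 and 86.4 CPM, mostly *Laptm5*, and the defining genes *Ptprc*, *Cd3e*, *Adgre1*, *Tyrobp* and *Cd79a* were not analysed here. *Laptm5* was at 44.7 ± 10.3 CPM in wild type and 63.8 ± 13.2 CPM in the *Piezo1* cKO-labelled libraries (SD, n = 3 each). Its groups overlapped, and it was not called (0.52, SE 0.22, adjusted p = 0.302 by edgeR). Endothelial markers summed to at most 11.2 CPM, with *Tie1* at 0 in every library and *Cdh5* and *Cldn5* not analysed here, and glial markers also to at most 11.2 CPM. Tenocyte markers summed to between 143 and 233 CPM, mostly *Scx*, and overlapped between the groups. *Mkx*, the other tenocyte marker tested, had 2, 10 and 3 counts in wild type and 11, 11 and 11 in the *Piezo1* cKO-labelled libraries. Its groups did not overlap, and it was not called (1.21, SE 0.48, adjusted p = 0.255 by edgeR).

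**Figure D5:**
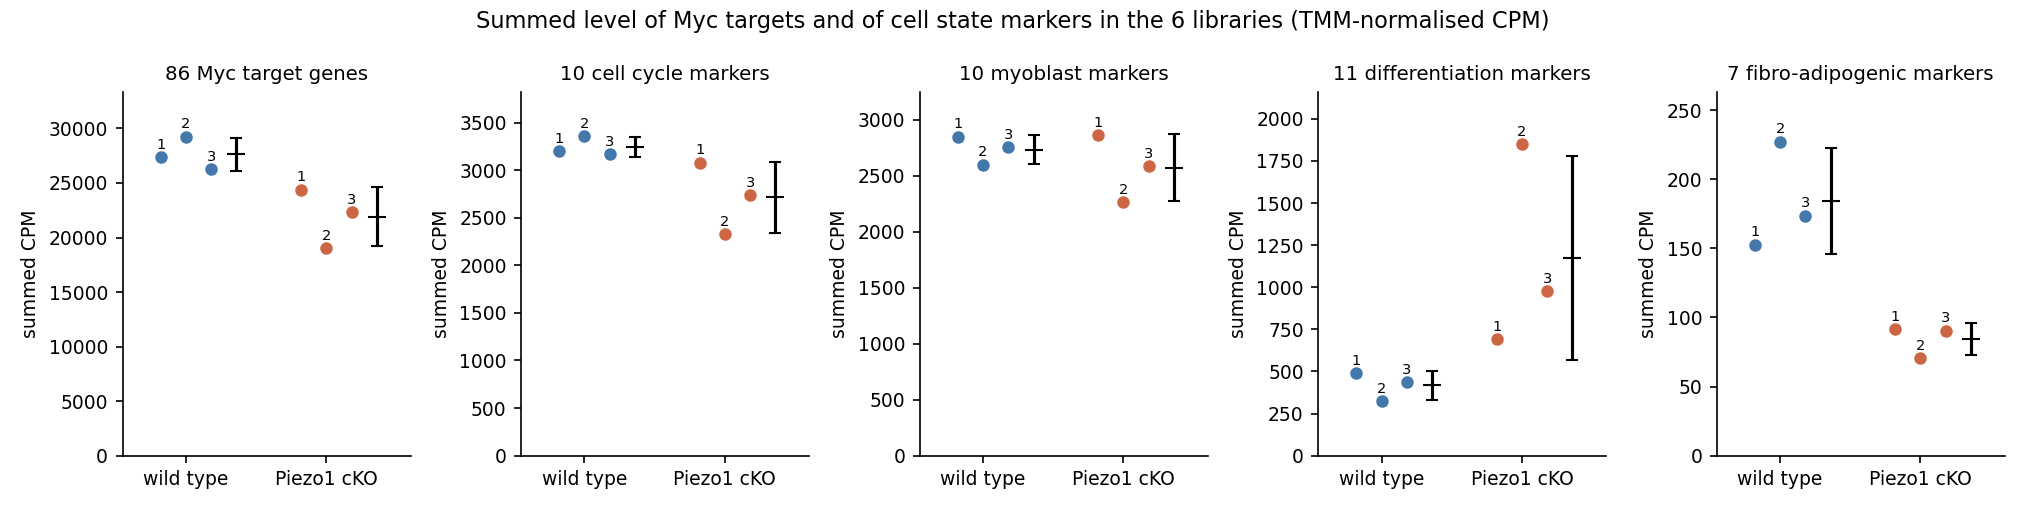
Summed level in TMM-normalised CPM (y axes from 0) of the 86 MYC targets and of 4 marker lists in each library, with replicate numbers above the points and the mean ± SD beside them. Library 2 labelled Piezo1 cKO is the lowest in targets (18997 CPM) and in cell cycle markers (2325 CPM) and the highest in differentiation markers (1852 CPM).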

How the data were processed

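The deposited values are UMI counts per gene, not normalised, with 1 column per library. Per the study's methods, the authors amplified cDNA by 12 PCR cycles, mapped reads to GRCm38 with STAR 2.7.9a, assigned them with featureCounts 2.0.1 and counted UMIs with UMI-tools 1.1.1. Settings for strand and for reads that map to several places were not given in the sources used here.

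The 10 members and all gene lists were chosen by hand with earlier results of these data known. Counts were analysed in R 4.3.3 with edgeR 4.0.16 (TMM, library size from the whole column, robust quasi-likelihood fit, minimum count of 10, Benjamini-Hochberg adjustment over all 8551 genes kept, threshold 0.05). The SE was derived from the F statistic. Alternatives were DESeq2 1.42.0, limma-voom (limma 3.58.1), other normalisations, filters and thresholds, thinning, a replicate block and each library left out. The script was tested on simulated counts. Named were *Piezo1*, the members, list genes called, the 3 genes with the smallest p in each direction per pathway list, tested markers, and the 5 genes most correlated with *Myc*, *Max* and *Mxi1* (log2 CPM, prior count 2). Gene coordinates are from GENCODE M21 (GRCm38). Libraries held 726378 to 931168 counts, and the Wilson intervals and floors cover counting error only, whereas the intervals of fold changes include the spread between libraries. Within groups, libraries differed by more than sampling noise (chi-square per degree of freedom 1.64 to 2.61).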

Additional observations from a re-analysis of the deposited data

How the results depend on the processing

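Against 67 genes called by edgeR, DESeq2 called 27, edgeR with no filter 129, an adjusted p under 0.1 gave 124, and leaving out 1 library gave 6 (without library 2 labelled *Piezo1* cKO) to 155 (without library 1). Against 1 member called, DESeq2, limma-voom, cyclic loess and the replicate block each called 0, requiring at least 10 counts in every library or an adjusted p under 0.1 gave 2, and leaving out 1 library gave 0 to 2. Against 4 MYC targets called, cyclic loess called 1 and leaving out 1 library gave 0 to 9. *Mycl* had a log2 fold change of 1.11 under limma-voom (adjusted p = 0.129), 0.95 under cyclic loess (0.156), 1.17 with the replicate block (0.0962) and 0.78 to 1.39 with 1 library left out. *Mlx* turned to -0.029 under cyclic loess and lay between -0.19 and 0.28 with 1 library left out, and *Mxi1* between -0.062 and 0.47. The median of the metabolic targets lay between -0.38 and -0.21 with 1 library left out. The causes were not tested.

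*Myc*, *Max* and *Mxd4* kept their direction under every alternative that gave a value. *Max* was never called, and *Myc* (adjusted p = 0.0921) was called only at an adjusted p under 0.1. DESeq2 gave an adjusted p for no member but *Myc*. The share of calls that were higher was 59.7% with TMM, 71.4% with total counts only, 68.2% with cyclic loess, 44.4% with DESeq2 and 54.1% to 82.8% with 1 library left out. Same-numbered libraries deviated from their group means with correlations of -0.143, -0.203 and 0.0121, so no shared deviation was seen. These values cannot exclude pairing, and the labels do not say whether the numbers pair the libraries. The replicate block called 46 genes, without *Pa2g4* (adjusted p = 0.108) and with the differentiation markers *Tnnc1* (0.00457) and *Acta1* (0.00401). At this depth 4 of the 10 members were too low to compare.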
